A study of Mus musculus with 4 samples.

Results

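Tight junctions seal the space between neighbouring epithelial cells. Claudins form their strands, occludin is a further membrane component, and the plaque proteins ZO-1, ZO-3 and cingulin tie the strands to the actin cytoskeleton. SNAI1 is a zinc finger repressor that binds E-box letters and represses epithelial genes, claudins and occludin among them, during epithelial to mesenchymal transition. Mouse embryonic stem cells grow as compact epithelial-like colonies and express junction genes. The 9 genes described here are the claudin genes Cldn3, Cldn4, Cldn6 and Cldn7, the occludin gene Ocln, the plaque genes Tjp1 (ZO-1), Tjp3 (ZO-3) and Cgn (cingulin), and Snai1. They were chosen by symbol and selected on their measured levels in this same contrast, with earlier results of these data in view, and all 9 were found among the 55401 genes of the count table.

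The study compared polyadenylated RNA from R1 mouse embryonic stem cells of 2 genotypes, wild type (control) and Usp28 KO, with 2 libraries in each group. Both groups grew on 0.2% gelatin in N2B27 with 1 μM PD0325901, a MEK inhibitor, 3 μM CHIR99021, a GSK3 inhibitor, and 10 ng/ml LIF. Usp28 encodes a deubiquitinase. The labels do not say how the knockout was made or whether the libraries of a group are separate cultures or clones. The p-values given here therefore measure no more than the spread of these 4 libraries, and that spread may be technical.

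Libraries held between 16595196 and 19533608 counts. Usp28 itself was at 3690 and 3120 counts in control and at 3392 and 3319 counts under the Usp28 KO label, so its gene-level count does not check the label. The mitochondrial share of counts was 2.77% and 5.65% in the control group against 1.92% and 3.33% in the Usp28 KO group. Of 15341 genes tested, edgeR at an adjusted p under 0.05 found 0 higher, 0 lower (1052 and 666 at an unadjusted p under 0.05). DESeq2 called 81 higher and 49 lower of 13411, and limma-voom called 0 each way. The 10 markers of embryonic stem cells summed to between 5400 and 5870 CPM in every library, where CPM is the count scaled to library size. Summed fibroblast markers stood at 3.63 and 5.11 CPM in control and 5.24 and 8.16 CPM in Usp28 KO libraries, with Lum, Dcn and Postn at 0 counts in all of them and Pdgfrb, the largest part of the sum, at 3.07 and 4.04 CPM against 4.23 and 7.09 CPM. Of the trophectoderm markers, Eomes was at 12.7 and 19.1 CPM in control against 12.5 and 19.9 CPM in Usp28 KO, Tfap2a was at 5.12 and 8.39 CPM against 2.84 and 3.95 CPM (edgeR, adjusted p = 0.290), Cdx2 had 2 counts in control replicate 1 and 0 elsewhere, and the sum lay at 18.3 and 28.1 CPM in control and 15.9 and 24.9 CPM in Usp28 KO libraries. Summed primitive endoderm markers lay at 12.9 and 8.76 CPM in control and 12.2 and 12.8 CPM in Usp28 KO libraries. The part of such cells in the values below was not tested.

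Because SNAI1 binds the E-box letters CAGGTG and their reverse complement CACCTG, the promoters of the 9 genes were searched for both. The windows were those of RefSeq on GRCm38.p6, from 250 bases before to 50 bases after each start site, and all 9 genes had at least 1. The letters were in 9 of the 12 windows and in 7 of the 9 genes (Tjp1 and Cgn had none). Of all 32851 such windows, 20.2% held them. The windows of Ocln overlap and share a match, and the 12 distinct matches differ in their setting. Only 4 lay outside the annotated exons of their gene, in Cldn4, Tjp3 and Snai1, while 3 matches, in Cldn6, Cldn7 and Ocln, sat exactly on a splice donor, whose usual letters resemble the E-box. A match is a description of letters and not of binding. The stretches below are 30 bases each on the gene's strand, with the match in capitals, for the claudins with the larger fold changes and for Tjp3. They start 12 bases before the match. The match begins 31 bases after the start site in Cldn3 (chr5:134986233-134986262, in its exon). In Cldn6 it begins 93 bases before the start site (chr17:23679260-23679289, in an exon of Cldn6-201). The matches in Cldn7 begin 97 and 57 bases before the downstream start site (chr11:69965312-69965341 and chr11:69965352-69965381). The first, labelled the upstream match, lies in an exon of Cldn7-202, and the second on the splice donor of Cldn7-202. In Tjp3 the match begins 108 bases before the upstream start site (chr10:81291672-81291701).
Cldn3: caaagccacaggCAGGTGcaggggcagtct
Cldn6: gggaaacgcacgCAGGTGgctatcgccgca
Cldn7, upstream match: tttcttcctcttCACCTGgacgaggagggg
Cldn7, splice donor: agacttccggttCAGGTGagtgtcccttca
Tjp3: gtcacaaggggtCAGGTGtacagacaggga

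For Cldn4, the most abundant claudin here, and for Snai1, whose own promoter holds the letters, the 150 bases before the start site are shown. The match begins 14 bases before the start site in Cldn4 (minus strand, chr5:134946935-134947084) and 126 bases before it in Snai1 (plus strand, chr2:167538045-167538194).
Cldn4: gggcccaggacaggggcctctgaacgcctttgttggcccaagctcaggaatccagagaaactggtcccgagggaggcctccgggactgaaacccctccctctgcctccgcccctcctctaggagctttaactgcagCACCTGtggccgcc
Snai1: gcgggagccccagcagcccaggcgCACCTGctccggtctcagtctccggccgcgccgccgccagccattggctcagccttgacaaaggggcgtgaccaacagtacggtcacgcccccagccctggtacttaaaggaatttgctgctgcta

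The claudins Cldn7, Cldn6 and Cldn3 stood about 2-fold to 3-fold higher in the libraries labelled Usp28 KO, Tjp3 and Cgn were higher by less, Cldn4 was close in the 2 groups, Tjp1 and Ocln overlapped, and Snai1 was nearly absent from the Usp28 KO libraries. In bulk RNA, fewer cells that express a gene and less RNA per cell cannot be told apart. Because the genes were chosen with this contrast known, their differences are given as a description, with no test. In 6 of the 9 genes both Usp28 KO libraries were above both control libraries (21.4% of all tested genes), and in 1 gene, Snai1, both were below (20.4%). At the adjusted threshold edgeR called 0 of the 9 (0% of all tested genes higher and 0% lower), and DESeq2, which gave an adjusted p to 8 of them, called Cldn7 alone as higher (0.604% of the genes it tested) and none as lower (0.365%). With no filter on low counts edgeR called Cldn7 as well, in a fit that called 204 genes higher and 118 lower. With 1 library left out the Cldn7 log2 fold change was between 1.27 and 1.94. Cldn7 was chosen with this contrast known, so these fits of the same libraries are no added support. The median log2 fold change of the 9 genes was 0.41, and 0.55 without Snai1, against -0.00 over all tested genes. These medians moved with single libraries. Without control replicate 1 Snai1 did not enter the fit, and the median of the other 8 genes was 0.63, to be set against 0.55. Without Usp28 KO replicate 1 the median of the 9 was 0.26.

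**Figure D1:**
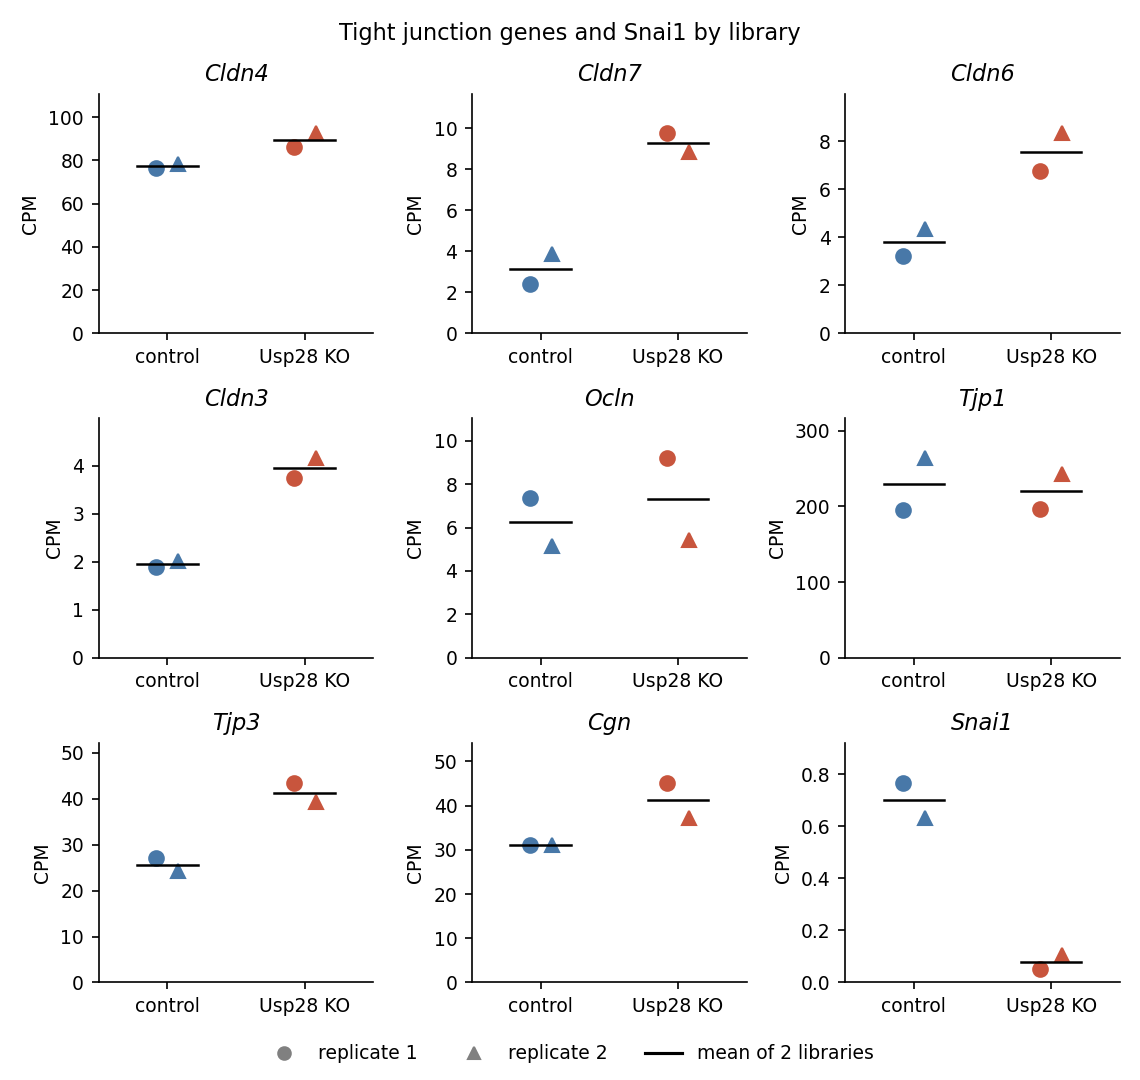
CPM of each of the 9 genes (vertical axes, each from 0) in the control and Usp28 KO libraries, 1 panel per gene; circles are replicate 1, triangles replicate 2, and bars the mean of 2 libraries. Cldn7, Cldn6, Cldn3, Tjp3, Cgn and Cldn4 have both Usp28 KO libraries above both control libraries, Tjp1 and Ocln overlap, and Snai1 has both below.

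Cldn7 encodes a claudin that binds the adhesion protein EpCAM. Its gene (ENSMUSG00000018569, chromosome 11, 69964779 to 69967885, plus strand, 5 merged exon blocks) was at 47 and 61 counts in control and at 182 and 166 counts in Usp28 KO. These are 2.41 and 3.85 CPM in control and 9.74 and 8.85 CPM in Usp28 KO libraries. Both Usp28 KO libraries were high and the groups did not overlap. The log2 fold change, Usp28 KO minus control, was 1.58 ± 0.30 (standard error, n = 2 per group), or 2.99-fold. It was 1.27 without control replicate 1, the lower control library, and 1.94 without control replicate 2.

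Cldn6 encodes a claudin of embryonic epithelia and pluripotent cells. Its gene (ENSMUSG00000023906, chromosome 17, 23679249 to 23682446, plus strand) had 3.22 and 4.35 CPM in control and 6.74 and 8.32 CPM in Usp28 KO libraries. The groups did not overlap, and in each group replicate 2 was the higher library. The log2 fold change was 1.00 ± 0.29, or 1.99-fold.

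Cldn3 and Cldn4 encode claudins that act as receptors for an enterotoxin of Clostridium perfringens. They lie side by side on chromosome 5 with 39280 bases between them, Cldn4 (ENSMUSG00000047501) at 134945119 to 134946934 on the minus strand and Cldn3 (ENSMUSG00000070473) at 134986214 to 134987472 on the plus strand, each as 1 exon block. Cldn3 had 37 and 32 counts in control and 70 and 78 in Usp28 KO libraries, which are 1.89 and 2.02 CPM in control and 3.74 and 4.16 CPM in Usp28 KO libraries. Both control libraries were low, the groups did not overlap, and the log2 fold change was 1.01 ± 0.33. Cldn4 had 76.4 and 78.2 CPM in control and 86.0 and 92.4 CPM in Usp28 KO libraries. Its groups did not overlap either, but the log2 fold change was 0.21 ± 0.16, or 1.15-fold. The difference of these neighbours was thus of unequal size, 2.02-fold in Cldn3 and 1.15-fold in Cldn4, and the gap between them was not tested.

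Cldn4 made up most of the claudin RNA by read count. Its share of the CPM summed over all claudin genes was 61.7% and 60.4% in control and 57.9% and 60.1% in Usp28 KO libraries. Cldn3, Cldn6 and Cldn7 together gave 7.52 and 10.2 CPM in control and 20.2 and 21.3 CPM in Usp28 KO libraries, against a total of 124 and 130 CPM over all claudins in control and 149 and 154 CPM in Usp28 KO libraries. Longer genes give more reads, so these shares are of reads and not of molecules.

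Occludin is a tetraspan protein of the junction strands. Ocln (ENSMUSG00000021638, chromosome 13, 100496507 to 100552718, minus strand) had 7.37 and 5.17 CPM in control and 9.20 and 5.44 CPM in Usp28 KO libraries. Replicate 1 was the higher library in each group and the groups overlapped. Its log2 fold change of 0.22 ± 0.31 was within its standard error, and it was -0.02 without control replicate 2 and turned to -0.21 without Usp28 KO replicate 1.

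Among the plaque genes, Tjp3 and Cgn had higher values in both Usp28 KO libraries, and Tjp1 overlapped between the groups. Tjp3 (ENSMUSG00000034917, chromosome 10, 81273207 to 81291581, minus strand) encodes ZO-3, a scaffold that binds claudins. It had 528 and 386 counts in control and 814 and 735 in Usp28 KO libraries, or 27.0 and 24.3 CPM against 43.5 and 39.2 CPM. Both Usp28 KO libraries were high, and the log2 fold change was 0.69 ± 0.18 (1.61-fold). It shares 40 exon bases with Apba3 on the opposite strand, which had between 570 and 981 counts, and the strand setting of the counting is not given in the sources used here. Cingulin links the plaque to actomyosin and microtubules. Cgn (ENSMUSG00000068876, chromosome 3, 94760069 to 94786515, minus strand) had 31.2 and 31.1 CPM in control and 45.2 and 37.3 CPM in Usp28 KO libraries. The control libraries were nearly equal, the Usp28 KO libraries both lay above them, and the log2 fold change was 0.41 ± 0.18. Tjp1 (ENSMUSG00000030516, chromosome 7, 65296165 to 65527781, minus strand) encodes ZO-1, the main scaffold of the plaque. It had 196 and 264 CPM in control and 197 and 243 CPM in Usp28 KO libraries. Replicate 2 was the higher library in each group, the groups overlapped, and the log2 fold change was -0.07 ± 0.19. It turned to 0.16 without control replicate 2 and to 0.08 without Usp28 KO replicate 1.

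Snai1 (ENSMUSG00000042821, chromosome 2, 167538195 to 167542814, plus strand) was the only one of the 9 genes that was lower in both libraries labelled Usp28 KO than in both control libraries. It had 15 and 10 counts in control and 1 and 2 counts in Usp28 KO libraries, or 0.768 and 0.631 CPM against 0.0535 and 0.107 CPM. The summed counts were 25 in control and 3 in Usp28 KO libraries. After scaling, the Usp28 KO level was 0.113 of the control level. The 95% exact conditional binomial interval was 0.0219 to 0.372. It pools the libraries of each group and covers counting error only. Snai1 was chosen with this contrast known, so the interval is no test of a difference. The fitted log2 fold change was -3.03 ± 0.80, a value that depends on the prior count at such low counts. Snai1 passed the filter on low counts through the control group alone (2 control and 0 Usp28 KO libraries reached its minimum). A gene below that minimum in both Usp28 KO libraries could be tested only if it was higher in control. Without control replicate 1 it did not pass the filter, and DESeq2 gave it no adjusted p.

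**Figure D2:**
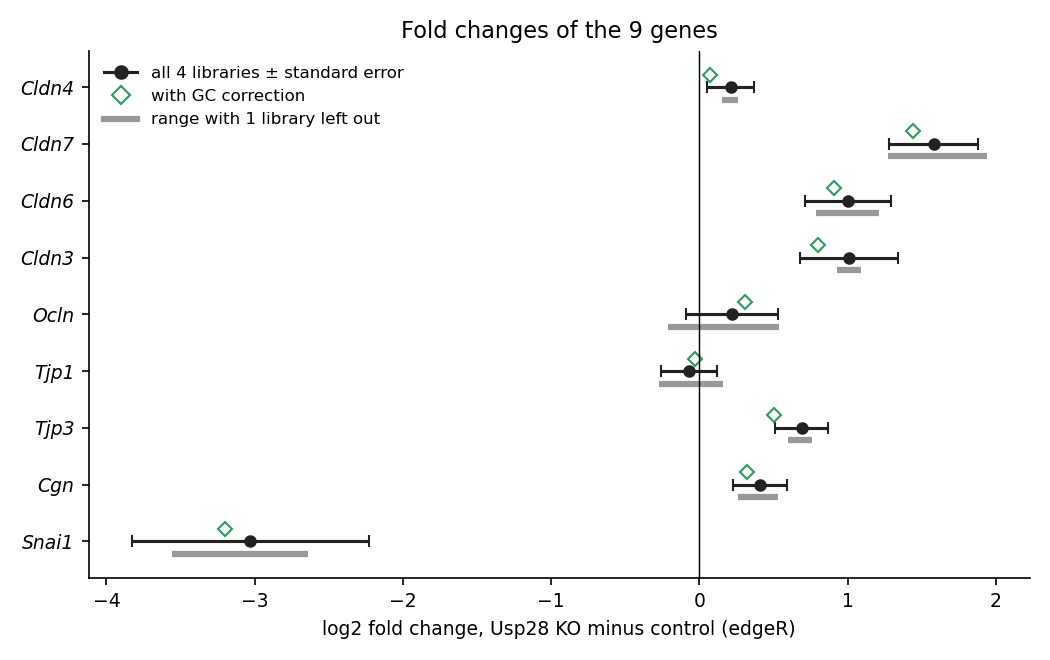
Log2 fold change (horizontal axis, Usp28 KO minus control, edgeR) of the 9 genes: dots with bars are all 4 libraries ± standard error, open diamonds the value with a correction for GC content, and grey bars the range with 1 library left out. Cldn7, Cldn6, Cldn3, Tjp3, Cgn and Cldn4 lie above 0 under all of these, Ocln and Tjp1 span 0 with a library left out, and Snai1 lies below 0 in the 3 fits with a library left out that could include it.

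Levels were compared between genes per length, as RPKM, the CPM divided by the exon length in kilobases. In control libraries the order was Cldn4 (42.6 ± 0.69 RPKM, SD, n = 2), Tjp1 (29.4 ± 6.24), Tjp3 (6.92 ± 0.511), Cgn (5.16 ± 0.00247), Cldn6 (2.20 ± 0.463), Cldn7 (1.60 ± 0.523), Cldn3 (1.55 ± 0.0696), Ocln (1.49 ± 0.368) and Snai1 (0.431 ± 0.0598). Cldn6 overlapped with Cldn7, Cldn7 with Cldn3 and Cldn3 with Ocln, so these neighbours do not differ beyond their spread, while both Cldn6 values lay above those of Cldn3 and Ocln. In Usp28 KO libraries Cldn7 (4.77 ± 0.32 RPKM) and Cldn6 (4.38 ± 0.649) overlapped with each other, and both lay above Cldn3 (3.14 ± 0.233), which lay above Ocln (1.73 ± 0.63). Cldn4 (49.1 ± 2.48 RPKM), Tjp1 (28.1 ± 4.21), Tjp3 (11.1 ± 0.827) and Cgn (6.83 ± 0.92) kept the first 4 places, and Snai1 (0.0494 ± 0.0232) the last. Cldn4 thus stayed the most abundant of the 9 genes per length in both groups.

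**Figure D3:**
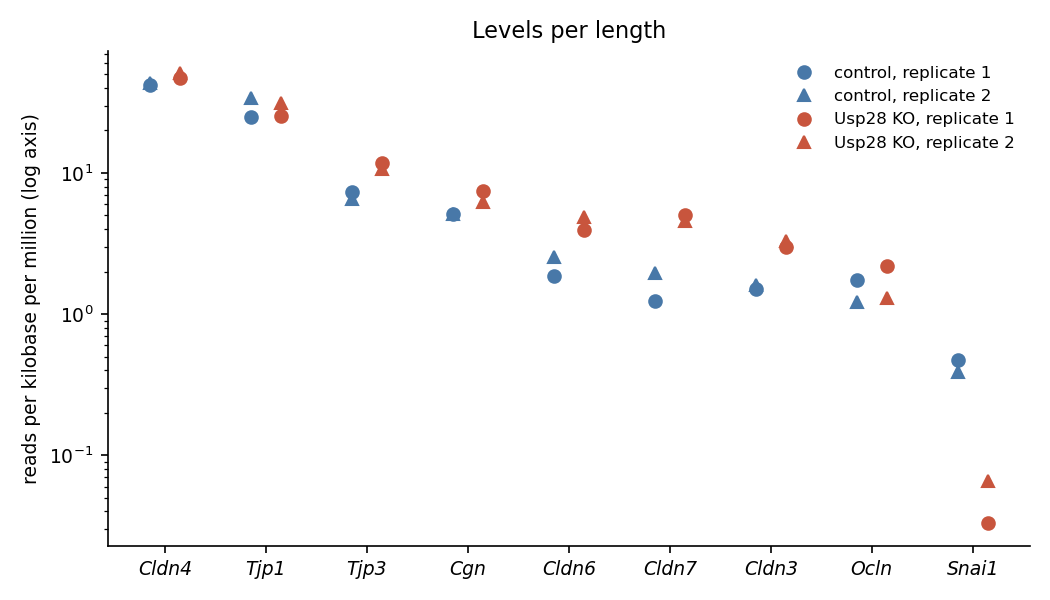
Level per length of the 9 genes in each library, in RPKM on a log axis, ordered by the control mean; blue is control, red Usp28 KO, circles replicate 1 and triangles replicate 2. Cldn4 and Tjp1 lead in both groups, Cldn6, Cldn7, Cldn3 and Ocln lie together in control, and Snai1 is lowest.

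Libraries differed in how expression followed the GC content of transcripts, which touches these genes because most of them are GC-rich. The rank correlation with GC content of a library's log2 level, relative to the mean of the other libraries, was -0.441 for control replicate 2 and 0.451 for Usp28 KO replicate 2, in opposite directions, against 0.055 for control replicate 1 and 0.003 for Usp28 KO replicate 1. The log2 fold change correlated with GC content at a Spearman rho of 0.323 across 10704 genes of at least 5 mean CPM, which are not independent replicates. The longest transcripts of Cldn3, Tjp3 and Snai1 held 62.7%, 60.7% and 59.8% G and C and lay in the highest of 10 equal bins of tested genes, where the median log2 fold change was 0.19. Cldn7 and Cldn4, at 57.0% and 56.8%, lay in the next bin, with a median of 0.10, and Ocln, at 42.0%, in the second lowest, with a median of -0.10. With a correction for GC content the log2 fold changes were 1.44 for Cldn7, 0.91 for Cldn6, 0.80 for Cldn3, 0.07 for Cldn4, 0.50 for Tjp3, 0.32 for Cgn, 0.31 for Ocln, -0.03 for Tjp1 and -3.20 for Snai1. The 3 claudins with the larger differences stayed above 0, and the Cldn4 difference was less than its standard error.

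**Figure D4:**
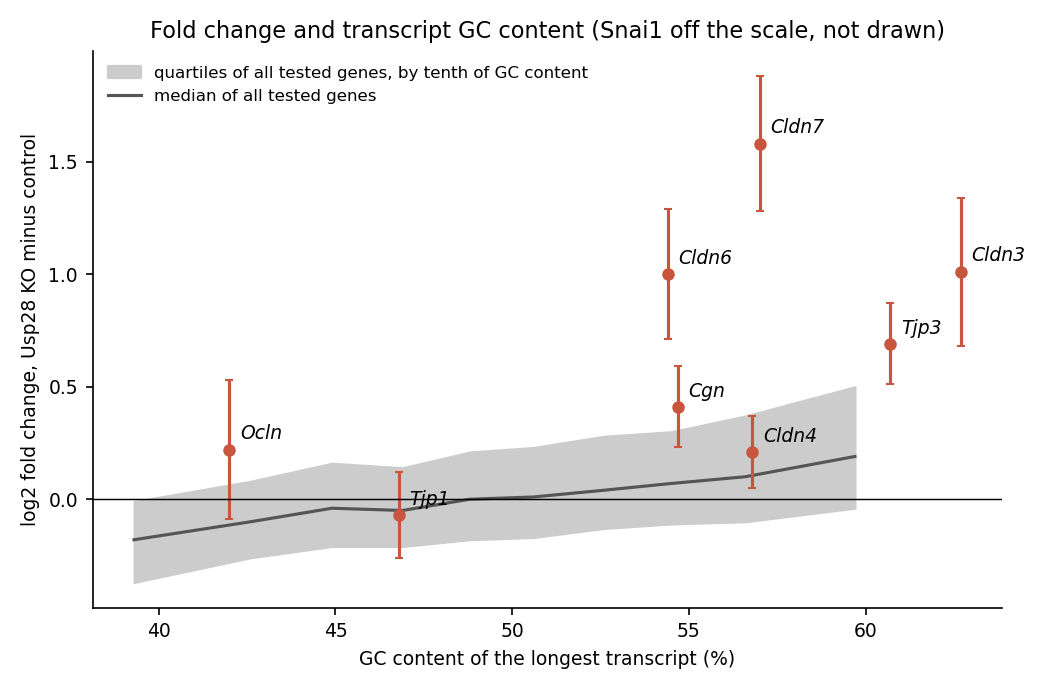
Log2 fold change (vertical axis, Usp28 KO minus control, with standard error) against the GC content of the longest transcript in percent; the grey line and band are the median and quartiles of all tested genes in 10 bins of GC content. Cldn7, Cldn6, Cgn and Ocln lie above the band, Cldn4 and Tjp1 inside it, and Snai1, at -3.03, is not drawn. Cldn3 and Tjp3 lie to the right of the band, which ends at 59.7%, and above the upper quartile of their bin (0.50).

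The other junction genes showed no common direction. Of 32 claudin genes in the table, 7 were tested, 16 had 0 counts in all libraries, which allows up to 0.189 CPM in the shallowest library, and 9 had at most 9 counts in any library. Among the 3 further tested claudins, Cldn12 had 38.0 ± 0.472 CPM in control against 37.5 ± 1.21 CPM in Usp28 KO libraries (SD, n = 2), and Cldn19 had 1.06 ± 0.196 and 1.07 ± 0.224 CPM. Cldn20 had 0.665 and 0.631 CPM in control and 1.44 and 1.28 CPM in Usp28 KO libraries (edgeR, adjusted p = 0.432). The claudins with too few counts to be tested went in both directions. Cldn9 had 5 and 3 counts in control and 9 and 7 in Usp28 KO libraries. Cldn14 had 0 and 0 against 6 and 4 counts, and Cldn15 had 5 and 5 against 4 and 0. Of the 3 further tested claudins edgeR called 0 in either direction. DESeq2 gave an adjusted p only to Cldn12 and did not call it. At an unadjusted p under 0.05 edgeR counted 1 of the 3 higher (6.86% of all tested genes) and 0 lower (4.34%).

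Of 12 tested genes for other membrane proteins of the tight junction, edgeR called 0. DESeq2 called 0 of the 10 to which it gave an adjusted p (Marveld3 had none). At an unadjusted edgeR p under 0.05, 1 was higher (6.86% of all tested genes) and 0 lower (4.34%). The median log2 fold change was 0.14. The tricellular and related MARVEL proteins are encoded by Marveld2 and Marveld3. Marveld3 had 0.599 ± 0.312 CPM in control against 1.39 ± 0.23 CPM in Usp28 KO libraries (log2 difference 1.17 ± 0.52; edgeR, adjusted p = 0.428), and Marveld2 had 4.65 ± 0.955 and 6.84 ± 0.921 CPM. The polarity gene Crb3 had a log2 fold change of 0.55 ± 0.28 and F11r, which encodes the junctional adhesion molecule JAM-A, of 0.27 ± 0.18. Of 27 tested plaque and polarity genes, edgeR and DESeq2 again called 0, and the median was 0.05. By unadjusted edgeR p, 2 were lower (4.34% of all tested genes) and 0 higher (6.86%). The 2 were the scaffold gene Magi3 (38.7 ± 1.3 to 26.7 ± 3.99 CPM, log2 fold change -0.54 ± 0.19; edgeR, adjusted p = 0.322) and the angiomotin family gene Amotl2 (62.4 ± 2.74 to 43.3 ± 10.9 CPM, log2 fold change -0.53 ± 0.20). Amotl2 rested on single libraries, with -0.29 without Usp28 KO replicate 1 and -0.81 without Usp28 KO replicate 2, where edgeR called it (adjusted p = 0.0371; 0.373 to 0.789 with another library left out). Mpdz and Llgl1 had log2 fold changes of 0.50 ± 0.25 and 0.29 ± 0.16. Without Usp28 KO replicate 1 Mpdz was at 0.17, and Llgl1 was at 0.14 with the GC correction.

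The adherens junction and desmosome list had a median of -0.00 over 20 tested genes. edgeR called 0, and DESeq2 called 0 of the 19 with an adjusted p. By unadjusted edgeR p under 0.05, 2 were higher (6.86% of all tested genes) and 1 lower (4.34%). E-cadherin, the main adhesion molecule of these cells and a known target of SNAI1, was level: Cdh1 had 416 and 445 CPM in control and 417 and 439 CPM in Usp28 KO libraries (log2 difference -0.01 ± 0.16). P-cadherin was higher by value, with Cdh3 at 11.4 ± 0.485 CPM in control against 17.5 ± 1.51 CPM in Usp28 KO libraries (edgeR, adjusted p = 0.318). The plakoglobin gene Jup had 209 ± 11.6 and 146 ± 37.6 CPM, a log2 fold change of -0.52 ± 0.19 that was -0.28 without Usp28 KO replicate 1 and -0.82 without Usp28 KO replicate 2, where edgeR called it (adjusted p = 0.0146; 0.328 to 0.773 with another library left out). The desmosomal genes Pkp3 and Dsg2 had log2 fold changes of 0.67 ± 0.28 and -0.33 ± 0.16.

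Of 22 tested epithelial regulators and surface genes, 16 had a log2 fold change above 0 (49.4% of all tested genes) and 6 below (50.6%), and the median was 0.33, or 0.24 with the GC correction. edgeR called 0 of them and DESeq2 called 0 of the 20 with an adjusted p. With an unadjusted edgeR p under 0.05, 3 were higher (6.86% of all tested genes) and 0 lower (4.34%). The 3 were St14, the gene of the membrane protease matriptase (74.0 and 87.6 CPM in control against 108 and 120 CPM in Usp28 KO libraries), its inhibitor gene Spint2 (94.0 ± 6.76 to 121 ± 1.46 CPM) and the keratin gene Krt18 (2.47 ± 0.163 to 4.27 ± 0.0844 CPM). The edgeR adjusted p was 0.290, 0.403 and 0.369 in that order. The epithelial splicing factor gene Esrp1 had a log2 fold change of 0.66 ± 0.31, and Epcam, whose product binds claudin-7, had 56.6 and 53.0 CPM in control and 77.3 and 56.1 CPM in Usp28 KO libraries.

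Among 9 other tested transcription factors of epithelial to mesenchymal transition, edgeR called 0, and the median was 0.08. DESeq2 called 0 of the 7 with an adjusted p (Snai2 had none). At an unadjusted p under 0.05 edgeR counted 1 higher, Snai3 (against 6.86% of all tested genes), and 1 lower, Klf8 (against 4.34%). The low level seen for Snai1 in the Usp28 KO libraries was not seen for its relatives. Snai2 had 1.07 and 1.01 CPM in control and 0.856 and 1.39 CPM in Usp28 KO libraries, and Snai3 had 0.665 and 1.14 CPM in control and 1.93 and 2.13 CPM in Usp28 KO libraries (log2 difference 1.19 ± 0.45; edgeR, adjusted p = 0.343). Zeb1 and Zeb2 overlapped between the groups, with log2 fold changes of -0.31 ± 0.20 and -0.09 ± 0.27. Twist1 had 0.63 ± 0.30, and Klf8 and Tcf4 had -0.39 ± 0.17 and -0.35 ± 0.17. In the list of SNAI1 corepressors and turnover genes the median was 0.00 over 21 tested genes, with 0 called by edgeR or DESeq2. In that list edgeR counted 1 lower (4.34% of all tested genes) and 0 higher (6.86%) at an unadjusted p. The lower gene was Lats2, a Hippo pathway kinase gene. It had 4.09 and 2.77 CPM in control and 1.66 and 1.17 CPM in Usp28 KO libraries (edgeR, adjusted p = 0.229). The LIM protein gene Ajuba and the chromatin genes Eed and Hdac2 had log2 fold changes of -0.35 ± 0.16, -0.28 ± 0.15 and -0.25 ± 0.16.

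Of 10 tested mesenchymal genes, edgeR and DESeq2 called 0, and the median was 0.07. By unadjusted edgeR p under 0.05, 2 were higher (6.86% of all tested genes) and 1 lower (4.34%). The gelatinase gene Mmp2 had 4.07 ± 0.0418 CPM in control against 8.01 ± 1.04 CPM in Usp28 KO libraries (log2 difference 0.98 ± 0.27; edgeR, adjusted p = 0.193), and Tgfb1 had 8.58 ± 0.457 and 12.5 ± 2.28 CPM. The intermediate filament gene Vim had a log2 fold change of -0.29 ± 0.17.

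**Figure D5:**
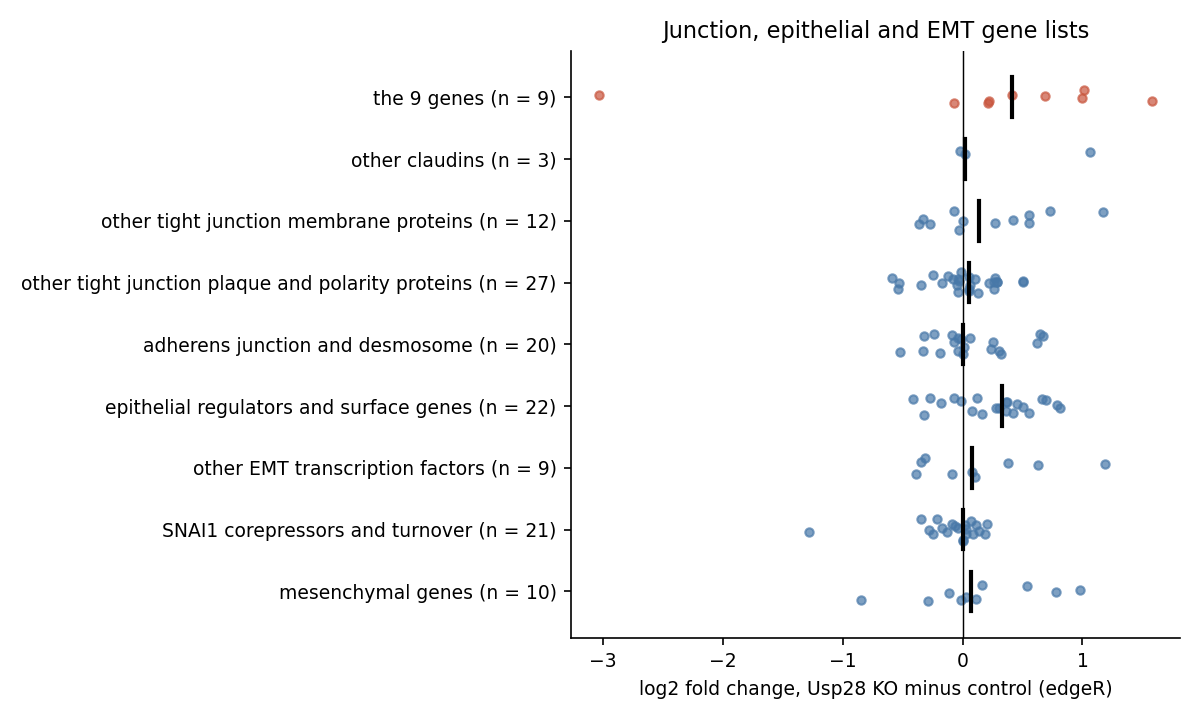
Log2 fold change (horizontal axis, Usp28 KO minus control, edgeR) of every tested gene in each list, 1 dot per gene, with the list's median as a black bar; dots are spread vertically at random for legibility. The 9 chosen genes (red) have a median of 0.41, the other lists have medians between -0.00 and 0.33, and Snai1 at -3.03 is the lowest point.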

How the data were processed

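The values are raw read counts per gene, per the file headers in the layout of featureCounts, which also lists exon positions. The submitters' processing notes name HISAT2, featureCounts, DESeq2 and mm10, without versions. Strandedness, multi-mapping reads and annotation release: not given in the sources used here. Of the 55401 identifiers, 55141 matched GENCODE M21 symbols, and all 54349 that matched with their version had the same coordinates.

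Counts were analysed in R 4.3.3 with edgeR 4.0.16: filterByExpr (minimum count 10, minimum total 15) kept 15341 genes, TMM scaled the libraries, and a robust quasi-likelihood fit compared the groups, with Benjamini-Hochberg adjustment over all genes at 0.05. CPM uses the TMM-scaled library size. RPKM divides it by the deposited exon length. DESeq2 1.42.0 (all genes with at least 1 count, own size factors) and limma-voom 3.58.1 were alternatives, besides 2 other scalings, 2 other filters, a replicate block, GC offsets (natural spline, 5 degrees of freedom, alone and with the block) and leaving out each library. In simulated counts over 15037 genes, 50 genes were changed at each of the folds 1.5, 2, 3 and 4. The changed genes all had a mean above 1 CPM. Snai1 lies below that level, so the rates do not cover it. edgeR recovered 78% of those changed 2-fold and 22% at 1.5-fold, with 22 false calls in the whole run. The simulated libraries were drawn independently, without the shared deviations of same-numbered libraries or the GC trends seen here. These rates therefore need not hold for the real libraries.

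The genes named were the 9 chosen genes, Usp28, the 4 genes of each list with the smallest p, 7 fixed genes and the 3 nearest patterns to Cldn7 and to Snai1. Some genes under this rule are not reported here. Cldn9, Cldn14 and Cldn15 were named after their values were seen. The members and lists were chosen with earlier results of these data known.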

Additional observations from a re-analysis of the deposited data

How the results depend on the processing

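The number of genes that edgeR called depended on the processing: 0 higher and 0 lower became 81 and 49 with DESeq2, 24 and 5 with library totals in place of TMM, 204 and 118 with no filter, and between 49 and 146 higher and between 31 and 200 lower with 1 library left out. limma-voom, DESeq2 size factors, the filter of 50 counts in 2 libraries and the GC correction kept 0 each way. Of the 15341 genes tested, a replicate block in the edgeR fit gave 965 higher and 716 lower, and 1271 and 1322 with the GC correction as well. Deviations of same-numbered libraries from their group means correlated at 0.518, but the labels do not say that a number marks a shared batch. Under the block edgeR called 5 of the 9 chosen genes (Cldn3, Cldn6, Cldn7, Tjp3 and Snai1). It also called 14 of 37 other named genes, Magi3, Amotl2, Jup, Cdh3, Lats2, St14 and Mmp2 among them. The 37 leave out Usp28 and the genes nearest in pattern to Cldn7 and Snai1. With the GC correction as well edgeR called 4 of the 9, without Cldn3, and 17 of the 37. These counts describe the libraries and are no test, because the 9 were selected on this contrast and most of the 37 by small p in it. Snai1 passed the filter of these fits through the control group alone. Without a block, none of the 37 was called in any alternative that kept all 4 libraries. Among the genes nearest in pattern, DESeq2 called Tspan7, Spock2 and Dppa3 higher (adjusted p = 0.00128, 0.00715 and 0.000703) and Zfhx3 lower (adjusted p = 0.0111). They were picked for likeness to Cldn7 or Snai1, so these calls are a description too. Of the 37, 21 moved by more than 1.5 times in at least 1 fit with a library left out, and 7 with the GC correction. The cause of these shifts was not tested.

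Cldn7, Cldn6, Cldn3, Cldn4, Tjp3 and Cgn kept a log2 fold change above 0 in all 13 alternatives (1.27 to 1.94, 0.79 to 1.21, 0.80 to 1.09, 0.07 to 0.27, 0.50 to 0.76 and 0.26 to 0.53 over all settings), and Snai1 below 0 in the 11 that could include it. Ocln changed sign in 2 and Tjp1 in 2, each with a library left out. Near 0, Cldn12 turned to 0.04 with library totals and with the GC correction (alone and with the block) and to 0.01 without Usp28 KO replicate 2. Cldn19 turned to -0.05 with the GC correction, -0.06 with the block as well, -0.17 without control replicate 1, and spanned -0.22 to 0.22 over the libraries left out. Cdh1 turned to 0.05 with library totals, 0.01 with the filter of 50 counts and 0.03 when either control replicate 2 or Usp28 KO replicate 1 was dropped. Zeb2 turned to 0.06 with the GC correction (alone and with the block) and 0.01 without Usp28 KO replicate 1 (-0.21 without Usp28 KO replicate 2), and Snai2 to -0.29 without Usp28 KO replicate 2 (0.41 without Usp28 KO replicate 1). With 1 to 2 counts in each Usp28 KO library, the size of the Snai1 difference is limited by depth.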

Other observations

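Genes whose pattern over the 4 libraries lay nearest to that of Cldn7 and Snai1 were found among 10697 tested genes of at least 5 mean CPM, by root mean square distance of centred log2(CPM + 0.5). They were picked for this likeness, so it is a description of these libraries and says nothing of shared control. Nearest to Cldn7 were the tetraspanin gene Tspan7 (distance 0.087 log2 units), the proteoglycan gene Spock2 (0.096) and the germ cell gene Dppa3 (0.100). Tspan7 had 4.45 and 6.05 CPM in control and 15.9 and 13.1 CPM in Usp28 KO libraries. Spock2 had 4.81 and 7.57 CPM in control and 15.6 and 15.2 CPM in Usp28 KO libraries. In each of these genes, as in Cldn7, control replicate 1 was the lowest library.

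Nearest to Snai1 were the homeobox factor gene Zfhx3 (distance 0.067 log2 units), the predicted gene Gm17232 (0.074) and the peroxisomal enzyme gene Ehhadh (0.074). Zfhx3 had 32.2 and 27.9 CPM in control and 13.7 and 16.7 CPM in Usp28 KO libraries, which differed by -0.98 ± 0.21 on the log2 scale. Ehhadh had 12.2 and 9.77 CPM in control and 4.49 and 5.60 CPM in Usp28 KO libraries. The added 0.5 CPM compresses the Snai1 pattern, since Snai1 itself lies near that value, so genes with a smaller fold change than that of Snai1 come out as its nearest.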
